A study of Homo sapiens with 16 samples.

Results

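Long internal exons are exons of more than 1000 nt that lie between other exons of a transcript. They were collected from the full-length transcript models of 4 long-read (IsoSeq) pools. An exon was kept if it was neither first nor last in a model and held no complete intron of any model on its strand in the 4 pools. Of 140288 unique internal exons, 5758 exceeded 1000 nt, 3758 of these held an intron and were left out, and 2000 remained. For 1851 of them a single RefSeq gene could be named, giving 1416 host genes, while 138 lay in no named gene and 11 in several.

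The cells were HEK-293T, a human embryonic kidney line, and HT-1080, a human fibrosarcoma line. In each line, some cultures received 20 nM of an siRNA that targets HNRNPH1 (siHNRNPH1) and others the control siRNA (siNegative). Their RNA was collected after 48 h. HNRNPH1 is an RNA-binding protein that recognises runs of G and regulates splicing. Each of the 4 groups had 3 short-read libraries, which the labels call biological replicates, and 1 IsoSeq pool of replicates.

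Most internal exons of human genes are short, because the spliceosome usually recognises an exon as a unit across which the factors at its acceptor (3′ splice site, where the exon begins) and donor (5′ splice site, where it ends) make contact. Long internal exons are exceptions, and many of them carry large uninterrupted stretches of coding sequence in genes for nuclear, scaffold and zinc-finger proteins. Other long internal exons arise near the ends of genes, where an intron within an untranslated region separates a long exon from a short one.

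The splice sites of 3 such exons are shown because they let the coordinates of the models be checked against reference sequence. Each line gives 20 bases of intron and 3 bases of exon, read 5′ to 3′ from RefSeq promoter windows of GRCh38.p14, and the capitals mark the invariant AG of an acceptor or GT of a donor.
GZF1 acceptor: ttcttgtttctttttcaaAGctg
BRD2 acceptor: cgtctttttcctcgtttcAGatt
BRD2 donor: taaGTacgtttccgcgagccgcg
ZNF407 acceptor: catgtttgtttacttcacAGgtt
The GZF1 exon (chr20:23364363-23365747, plus strand, 1385 nt) encodes part of a zinc-finger repressor and was the second exon in the median model. Its models numbered 14 and 20 in HEK-293T (siNegative, then siHNRNPH1) and 8 and 12 in HT-1080, and 1 model of the last pool skipped it. The BRD2 exon (chr6:32971595-32972927, plus strand, 1333 nt) belongs to a bromodomain protein that binds acetylated histones, and had 14, 16, 11 and 6 models in the same order of pools, with no skipping model. The ZNF407 exon (chr18:74630967-74635706, plus strand, 4740 nt) was seen in 1 HEK-293T siHNRNPH1 model and 1 HT-1080 siNegative model. In all, 6 acceptors and 8 donors of long exons fell within such windows, and every one carried AG or GT. Edges outside these windows, the great majority, were not checked.

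Short-read libraries held 107.7 to 121.0 M (mega) expected counts for HEK-293T and 27.3 to 32.7 M for HT-1080. HNRNPH1 itself (ENSG00000169045.17), which holds no long internal exon, lay between 1105 and 1121 CPM (counts scaled to a library total of 1 M) in the HEK-293T siNegative libraries and between 234 and 394 CPM with siHNRNPH1. In HT-1080 it lay between 606 and 635 CPM and between 228 and 232 CPM. The log2 fold change was -1.76 ± 0.20 (SE, edgeR BH-adjusted p = 0.00939) for HEK-293T cells. For HT-1080 cells it was -1.49 ± 0.04 (edgeR BH-adjusted p = 6.76e-09). Replicate 1 of HEK-293T siHNRNPH1 stands apart from the other HEK-293T libraries, so HEK-293T results on host genes are given with and without it. Whether the HEK-293T siHNRNPH1 IsoSeq pool contains RNA of this replicate is not stated. Results from that pool cannot be given without it.

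The longest exon had 6701 nt and the median was 1514 nt. Of the 2000, 484 exceeded 2000 nt, 131 exceeded 3000 nt and 11 exceeded 5000 nt. Just inside the limit, 245 exons measured up to 1100 nt, of which 66 were in all 4 pools. Just outside it, 306 internal exons without an intron measured over 900 and up to 1000 nt, of which 82 were in all 4 pools. Protein-coding genes hosted 1764 of the exons, long noncoding RNA genes 60 and pseudogenes 26. The exon length was a multiple of 3 in 35% of long exons (exact Clopper-Pearson 95% interval 32.9 to 37.1%) and in 38.5% of the 134530 internal exons of up to 1000 nt. For the 366 long exons found in all pools the share was 33.6% (28.8 to 38.7%).

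The HEK-293T pools yielded more long internal exons than the HT-1080 pools. There were 1037 in HEK-293T siNegative, 1257 in HEK-293T siHNRNPH1, 775 in HT-1080 siNegative and 774 in HT-1080 siHNRNPH1. The number of models also differed, with 61228, 89354, 67529 and 63572 models of 3 or more exons in the same order. The HEK-293T siHNRNPH1 pool, which had the most models, also had the most long exons. As a share of the unique internal exons of each pool, long exons made up 1.06%, 1.17%, 0.758% and 0.759% in the same order.

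Read against the number of models, the direction in HEK-293T turned. In HEK-293T, 4.92% of these models (4.75 to 5.09%) carried a long internal exon with siNegative and 4.44% (4.31 to 4.58%) with siHNRNPH1, a difference of -0.475 percentage points (-0.695 to -0.257). In HT-1080 the share was 3.15% (3.02 to 3.29%) with siNegative and 3.63% (3.49 to 3.78%) with siHNRNPH1, a difference of 0.481 points (0.284 to 0.679). The intervals cover counting error only, and with 1 pool per group neither difference could be tested against the spread between replicates. The median model length moved in the same direction as the share in each line. It was 3262 nt and 3108.5 nt in HEK-293T (siNegative, then siHNRNPH1) and 2745 nt and 2853 nt in HT-1080. Among models of 3000 to 4000 nt, the shares were 5.41% and 5.26% in HEK-293T and 4.35% and 4.75% in HT-1080. Those differences, -0.151 points (-0.553 to 0.247) and 0.407 points (-0.038 to 0.853), both had intervals that included 0. This range was chosen after seeing the data. It left 20908 and 30019 models in HEK-293T and 17099 and 17127 in HT-1080, and fewer models give wider intervals. Whether model length accounts for the differences in share was not tested.

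**Figure D1:**
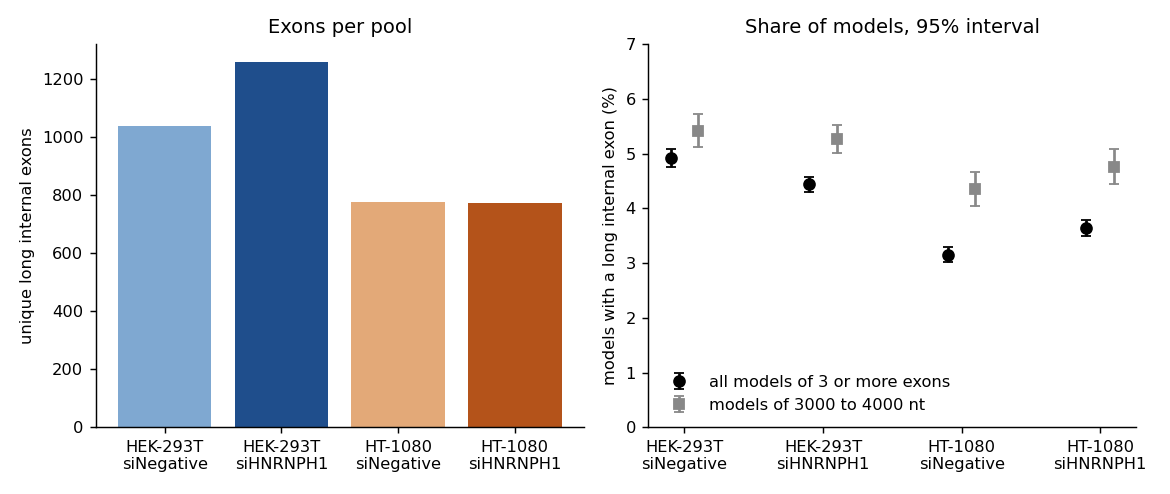
Left, number of unique long internal exons in each pool (bars from 0). Right, percentage of models that carry such an exon, for all models of 3 or more exons (circles) and for models of 3000 to 4000 nt (squares), with exact 95% intervals that cover counting error only; the HEK-293T shares of 4.92% and 4.44% lie above the HT-1080 shares of 3.15% and 3.63%.

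Most long internal exons were seen rarely. Of the 2000, 1058 (52.9%) were in 1 pool, 407 in 2 pools, 169 in 3 pools and 366 (18.3%) in all 4. Among internal exons of up to 1000 nt, 53.1% were in all 4 pools and 19.1% in 1 pool. A single model supported 975 long exons, 2 to 9 models supported 719, and 10 or more supported 306. Within HEK-293T, 703 exons were in both pools, which is 67.8% of the siNegative and 55.9% of the siHNRNPH1 exons. Within HT-1080, 517 were in both, or 66.7% and 66.8%. HEK-293T siHNRNPH1 alone held 466 long exons, or 23.3%, beside 8.19% of all internal exons. HEK-293T siNegative alone held 281, or 14.05%, beside 4.07%. HT-1080 siHNRNPH1 alone held 163, or 8.15%, beside 3.97%, and HT-1080 siNegative alone 148, or 7.4%, beside 4.24%. In every pool, long exons were thus more often confined to that pool than internal exons in general.

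Both HEK-293T pools and neither HT-1080 pool held 221 long exons, or 11.1%, beside 7.07% of all internal exons. Both HT-1080 pools and neither HEK-293T pool held 98, or 4.9%, beside 8.70%. Both siHNRNPH1 pools and neither siNegative pool held 25, or 1.25%, beside 0.954%, and the reverse held for 14, or 0.7%, beside 0.559%. Long exons and all internal exons alike were thus shared more often by the pools of a line than by the pools of an siRNA. Neither of the last groups held an exon with 10 or more including or skipping models in each pool, the depth required here for a comparison of inclusion.

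**Figure D2:**
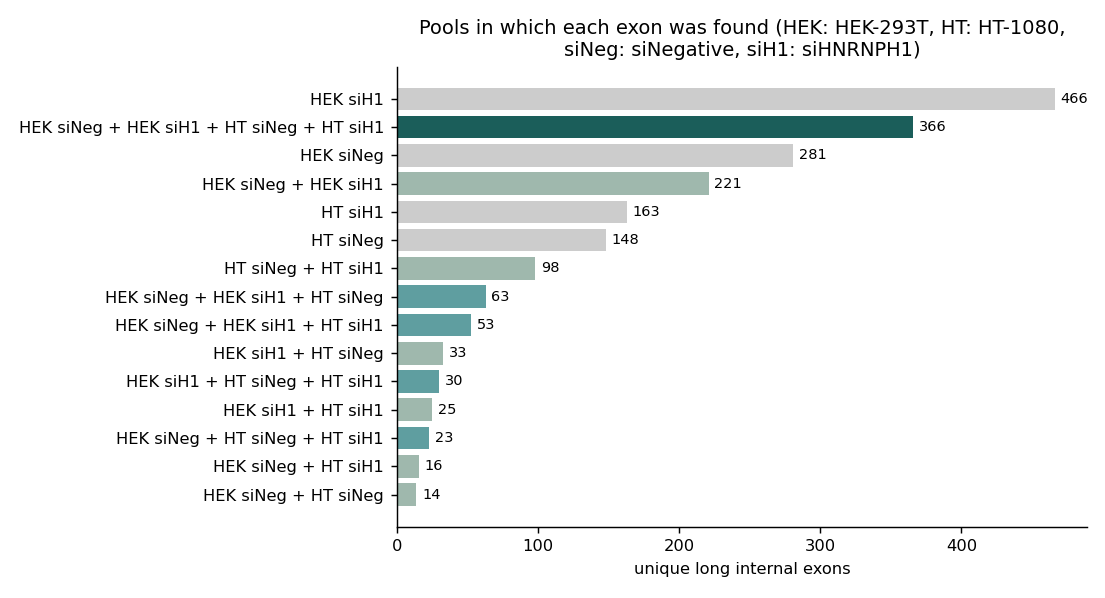
Number of long internal exons in each combination of pools (horizontal bars from 0, darker for more pools). The largest groups are exons found in HEK-293T siHNRNPH1 alone (466, or 23.3%, beside 8.19% of all internal exons) and in all 4 pools (366), while both siHNRNPH1 pools alone share 25.

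The exons carried by the most models were skipped by few models or none and lay in genes with varied functions. In the list that follows, the 4 numbers of models are for HEK-293T siNegative, HEK-293T siHNRNPH1, HT-1080 siNegative and HT-1080 siHNRNPH1. GPBP1L1, a relative of a GC-rich promoter-binding protein, had a 1042-nt second exon (chr1:45660184-45661225, minus strand) in 49, 63, 19 and 29 models. CAND1, which exchanges the substrate receptors of cullin ubiquitin ligases, had a 1494-nt exon (chr12:67305104-67306597, plus strand) in 39, 61, 21 and 21 models. MARCHF7, a ubiquitin ligase, had a 1099-nt exon (chr2:159747805-159748903, plus strand) in 45, 54, 17 and 25 models. No model of any pool skipped these 3 exons.

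The same held for QRICH1, a transcription regulator, with 25, 41, 21 and 19 models of a 1029-nt exon (chr3:49056862-49057890). MIOS, a subunit of the GATOR2 complex that signals amino acid supply to mTORC1, had 16, 34, 22 and 19 models of a 1334-nt exon (chr7:7572436-7573769), again with none that skipped it. SUGP2, a G-patch protein, had 25, 28, 17 and 11 models of a 1608-nt exon (chr19:19024619-19026226), and LRRC41 15, 25, 15 and 19 models of a 1138-nt exon (chr1:46285362-46286499). Both lacked skipping models in every pool.

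The remaining exons of this rank were skipped by a few models. PARP4, the poly(ADP-ribose) polymerase of vault particles, had 10 including models of 11 in HEK-293T siNegative, 23 of 24 in HEK-293T siHNRNPH1, and 24 of 24 and 28 of 28 in HT-1080 (1080 nt, chr13:24434395-24435474). YTHDF3, a reader of N6-methyladenosine in RNA, had 26 of 28, 28 of 29, 14 of 15 and 14 of 15 (1599 nt, chr8:63186147-63187745). PROSER1 had 17 of 19, 34 of 38, 8 of 8 and 10 of 10 (1786 nt, chr13:39012691-39014476). In none of these did the share of including models differ by 10 percentage points between the siRNAs of a line.

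**Figure D3:**
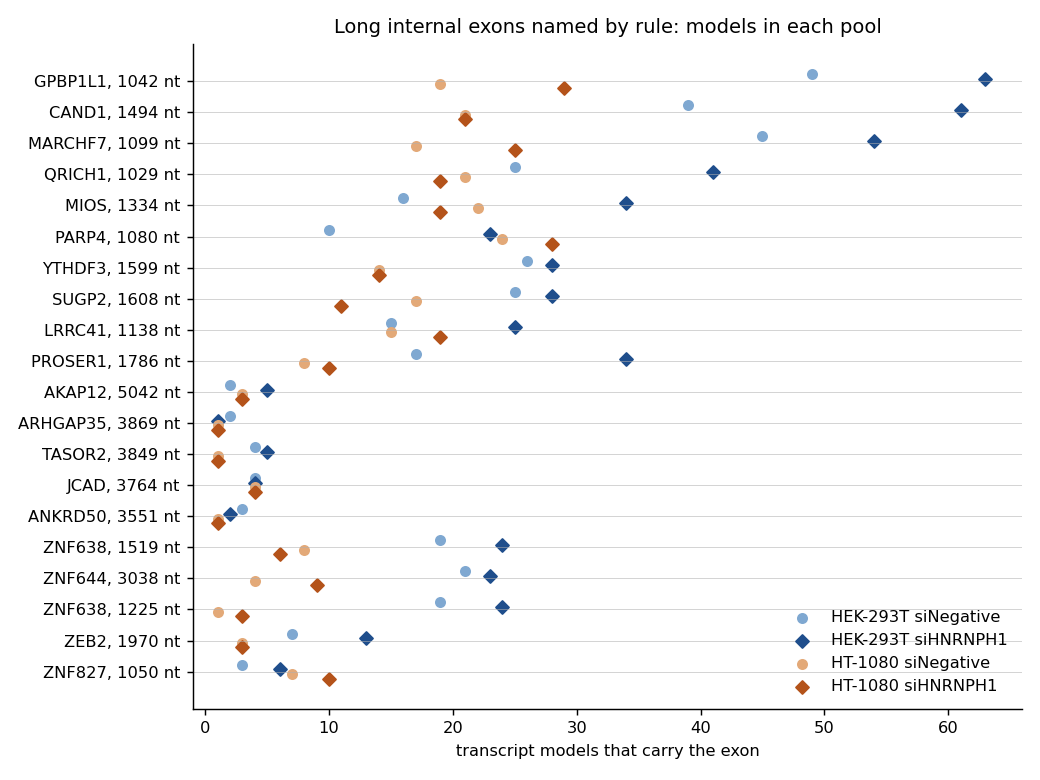
Number of transcript models that carry each of 20 long internal exons in each of the 4 pools (horizontal axis), for the exons with the most models, the longest found in all pools and those in zinc-finger genes. The counts for GPBP1L1 run from 19 to 63, whereas the longest exons, such as AKAP12 with 2 to 5, rest on few models.

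The longest exons found in all 4 pools rested on few models each. AKAP12, a scaffold that anchors protein kinase A, had a 5042-nt second exon (chr6:151348711-151353752, plus strand) in 2, 5, 3 and 3 models. ARHGAP35, a GTPase-activating protein, had a 3869-nt second exon (chr19:46918488-46922356) in 2, 1, 1 and 1 models. TASOR2, a relative of a subunit of the HUSH silencing complex, had a 3849-nt exon (chr10:5746179-5750027) in 4, 5, 1 and 1 models. JCAD, a protein of cell junctions, had a 3764-nt exon (chr10:30026103-30029866) in 4 models of each pool, with 1 skipping model in HT-1080 siNegative. ANKRD50, an endosomal recycling protein, had a 3551-nt exon (chr4:124668984-124672534) in 3, 2, 1 and 1 models. No order among these values can be read at such counts.

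Other very long exons were seen in some pools only. The longest of all lay in SRRM2, a large serine- and arginine-rich protein of nuclear speckles (6701 nt, chr16:2761561-2768261). It was in 2 models of HEK-293T siNegative, none of HEK-293T siHNRNPH1 and 1 of each HT-1080 pool. An exon of the zinc-finger gene ZNF646 (5456 nt, chr16:31076246-31081701) was in 1 model each of HEK-293T siNegative and HT-1080 siHNRNPH1. KNL1, the kinetochore scaffold, had 5001 nt (chr15:40620640-40625640) in 1 HEK-293T siNegative model. SETD2, the histone H3 lysine-36 methyltransferase, had 4367 nt (chr3:47120182-47124548) in 2 and 1 HEK-293T models.

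Zinc-finger genes, chosen by symbol (876 in the count tables, expressed or not), hosted 136 of the long exons in 106 genes, with a median length of 1826 nt. Of these, 31 were in all pools and 67 in 1 pool. ZNF638, a nuclear protein that binds nucleic acids, carried a 1519-nt second exon (chr2:71348753-71350271) in 19 of 23 including or skipping models in HEK-293T siNegative, 24 of 28 in HEK-293T siHNRNPH1, 8 of 8 in HT-1080 siNegative and 6 of 6 in HT-1080 siHNRNPH1. Its downstream 1225-nt exon (chr2:71422814-71424038) was in 19 of 22, 24 of 26, 1 of 1 and 3 of 3. ZNF644, a partner of the histone methyltransferases G9a and GLP, had a 3038-nt exon (chr1:90938272-90941309) in 21 of 30, 23 of 32, 4 of 8 and 9 of 12 models. This was the zinc-finger exon of these that was skipped most often, in both lines. ZEB2, a repressor active in the epithelial-mesenchymal transition, had a 1970-nt exon (chr2:144398301-144400270) in 7, 13, 3 and 3 models, and ZNF827 a 1050-nt second exon (chr4:145902166-145903215) in 3, 6, 7 and 10. The last 2 exons had no skipping models.

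The exons that both pools of 1 line shared and the other line lacked came partly from genes whose expression differed between the lines. The genes in this paragraph were chosen for their number of models after the values were seen, and the CPM are from tables of separate libraries. In HT-1080 alone, NLRP3, the inflammasome sensor, had a 1753-nt exon (chr1:247423847-247425599) in 11 siNegative and 15 siHNRNPH1 models. NLRP3 stood at 17.5 ± 1.8 CPM (SD, n = 3) in HT-1080 siNegative and at 0.06 ± 0.013 CPM in HEK-293T siNegative. ADGRF4, an adhesion receptor, had a 1380-nt exon (chr6:47713798-47715177) in 5 and 11 HT-1080 models, with 6.47 ± 0.49 CPM there and 0.0232 ± 0.0262 CPM in HEK-293T. GATA6, a transcription factor, had a 1172-nt exon (chr18:22171108-22172279) in 7 and 8 HT-1080 models, yet its level was 29.6 ± 1.04 CPM in HT-1080 siNegative and 23.9 ± 0.697 CPM in HEK-293T siNegative. MAMLD1 (1746 nt) and SCAF1 (2838 nt) had 7 and 13, and 8 and 11, HT-1080 models. In HEK-293T alone, TRO, the adhesion protein trophinin, had a 1191-nt exon (chrX:54922578-54923768) in 9 and 13 models, with 80.9 ± 1.42 CPM there and 0.628 ± 0.153 CPM in HT-1080. MECOM, a zinc-finger transcription factor, had a 1357-nt exon (chr3:169115383-169116739) in 11 and 14 HEK-293T models, with 41.0 ± 0.386 and 11.9 ± 1.2 CPM. CEP170, a protein of the mature centriole, had a 1833-nt exon (chr1:243164284-243166116) in 6 and 9 HEK-293T models, while its siNegative levels were 123 ± 3.36 CPM in HEK-293T and 114 ± 17.8 CPM in HT-1080. FOXRED2 (1554 nt) and CENPF (2844 nt) had 6 and 11, and 6 and 6, HEK-293T models. Over all 188 host genes of exons in the HEK-293T pools only, the median siNegative level was 47.2 CPM in HEK-293T and 21.2 CPM in HT-1080, with 38 genes under 1 CPM in HT-1080. For the 87 matched host genes of exons in the HT-1080 pools only, the medians were 17.1 CPM in HEK-293T and 48.6 CPM in HT-1080.

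Long internal exons sat close to the 3′ end of their models far more often than shorter ones. They were next to last in at least 50% of their models in 52.95% of cases, against 12.98% of internal exons of up to 1000 nt. They were second in 22.45%, against 14.1%. The acceptor of 53.35% of the long exons also opened the last exon of another model, against 7.42% of shorter internal exons. For 721 long exons (36.1%) that last exon ran on past the donor of the long exon, and for 419 (20.95%, against 3.37% of shorter exons) it ran through a whole downstream intron. In those 419 cases the models differed by an intron spliced from within what was otherwise the last exon. Exons share transcripts and genes, so no test was run on these shares.

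The tendency was smaller among the exons found everywhere but did not disappear. Of the 366 long exons in all 4 pools, 29.0% were mostly next to last and 29.2% mostly second, against 10.3% and 10.5% of the shorter internal exons in all 4 pools. Their acceptor opened a last exon elsewhere in 40.7%, against 8.07%. Long exons that rested on a single model were mostly next to last in 64.1%, against 18.4% of shorter internal exons that rested on a single model.

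**Figure D4:**
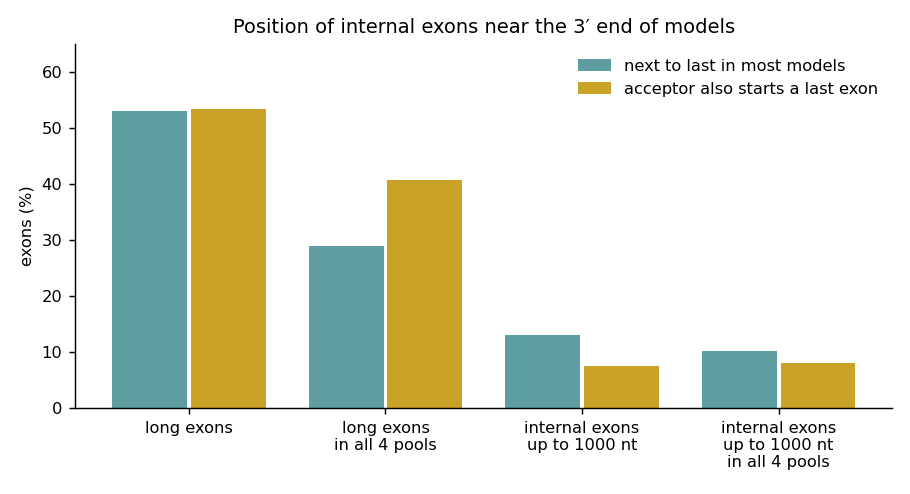
Percentage of exons that were next to last in at least 50% of their models (left bar of each pair) and whose acceptor also started a last exon of another model (right bar), for long internal exons and internal exons of up to 1000 nt, overall and in all 4 pools. The long exons reach 52.95% and 53.35%, and those in all 4 pools 29.0% and 40.7%, above the shorter exons in both settings.

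Several genes owed many long exons to a single acceptor joined to different donors. Of the 1416 host genes, 1157 held 1 long exon and 259 held 2 or more. In all, 183 acceptors were shared by 513 long exons, and 60 donors by 126. ICMT, the methyltransferase that finishes the processing of prenylated proteins, held 14 exons of 1115 to 1928 nt from 1 acceptor and 14 donors, all mostly next to last. They rested on 45 models, and 9, 8, 6 and 5 of them were present in the 4 pools in the order used above. SPCS3, a subunit of signal peptidase, held 10 exons of 1908 to 2879 nt on 32 models, and SFXN1, a mitochondrial serine transporter, 8 exons of 1264 to 1445 nt on 18 models. NUP43, a nuclear pore protein, held 8 exons of 1051 to 1693 nt on 15 models, of which 6, 4, 3 and 1 were present in the 4 pools. Each of these genes used 1 acceptor for all of its long exons.

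Few long exons differed in inclusion between the siRNAs at the depth of these pools. Inclusion is the share of models with the exact exon among these models and those with an intron that spans it. In HEK-293T, 83 long exons had at least 10 such models in both pools, and 0 differed by 20 percentage points or more, where 1.13% of all 24909 internal exons did. In HT-1080, 1 of 41 differed by that much, or 2.44%, where 0.886% of all 18065 internal exons did. Inclusion was 100% in both pools for 40 of the 83 and for 22 of the 41. Models that spanned an exon with another structure there counted neither as including nor as skipping. At 10 points, 5 exons in each line differed, that is 6.02% in HEK-293T beside 5.8% of all internal exons, and 12.2% in HT-1080 beside 5.1%. No replicate exists for any of these shares, so no test was made.

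The exon past 20 points lay in CSNK1D, a casein kinase (1665 nt, chr17:82253664-82255328). It was in 0 of 15 HT-1080 siNegative models (0 to 21.8%) and 3 of 13 HT-1080 siHNRNPH1 models, 23.1% (5.04 to 53.8%). The intervals overlap. In HEK-293T the exon was in 0 of 14 and 0 of 24 models, so the difference was seen in 1 line. CSNK1D expression in HT-1080 was 183 ± 3.92 and 188 ± 2.37 CPM (SD, n = 3), scaled by library total. The log2 fold change, which is scaled by TMM instead, was -0.03 ± 0.04 (edgeR BH-adjusted p = 0.595).

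Of the 28 long exons with 10 such models in every pool, 1 moved the same way in both lines. It lay in ACIN1, a protein of the exon junction complex (1358 nt, chr14:23067314-23068671), and was in 3 of 20 and 3 of 19 HEK-293T models, 15% and 15.8%, and in 0 of 14 and 1 of 17 HT-1080 models, 0% and 5.88%. These differ by 1 model or less. A second ACIN1 exon (1263 nt, chr14:23079547-23080809) had 5, 4, 5 and 5 models and none that skipped it.

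The other differences named here had intervals that overlapped between the siRNAs. In HEK-293T, NFATC3, a transcription factor of calcium signalling, included its 1135-nt second exon (chr16:68121987-68123121) in 15 of 18 siNegative models and 19 of 28 siHNRNPH1 models, 83.3% and 67.9%. AK3, a mitochondrial nucleotide kinase, included a 1842-nt exon (chr9:4726083-4727924) in 5 of 11 and 3 of 10. ZZZ3, a subunit of the ATAC acetyltransferase complex, included a 1556-nt exon (chr1:77631850-77633405) in 16 of 20 and 15 of 22. PHF3, which binds RNA polymerase II, included a 1783-nt exon (chr6:63684129-63685911) in 10 of 13 and 14 of 15, 76.9% and 93.3%. In HT-1080, SHLD2, a shieldin subunit, included a 1530-nt exon (chr10:87151350-87152879) in 10 of 12 and 14 of 14, and PALM2AKAP2 a 2413-nt exon (chr9:110136127-110138539) in 10 of 12 and 13 of 13. MET, a receptor tyrosine kinase, went from 9 of 10 to 8 of 10 for its 1214-nt second exon (chr7:116699071-116700284). The AK3 exon was in 3 of 9 and 0 of 7 HT-1080 models, below the 10 models required. SMPD4 went from 1 of 10 to 0 of 11 (1379 nt), and PRRC2A from 11 of 11 to 13 of 14 (1854 nt). An exon that lies in several genes (1056 nt, chr4:2240038-2241093) went from 12 of 13 to 16 of 16 in HEK-293T.

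With at least 5 such models required, 12 of 205 long exons differed by 20 points in HEK-293T, or 5.85%, beside 2.66% of all internal exons. In HT-1080, 7 of 170 did so, or 4.12%, beside 2.18%. The widest gap in HEK-293T was in RBM6, an RNA-binding splicing regulator that has 3 long exons with 1 shared donor. The shortest of them (1279 nt, chr3:49967470-49968748) was in 2 of 6 HEK-293T siNegative models, 33.3% (4.33 to 77.7%), and in 15 of 19 siHNRNPH1 models, 78.9% (54.4 to 93.9%). In HT-1080 it was in 5 of 8 and 5 of 7. The 1551-nt form of the same exon was in 3 of 7 and 1 of 5 HEK-293T models. Each of these shares leaves out models with another form of the exon. In HEK-293T, 11 siNegative and 22 siHNRNPH1 models spanned the 1279-nt exon, and 4 in each pool skipped it. The gap thus mixes a choice between forms with skipping. The widest gap in HT-1080 was in LRIF1, a chromatin protein that binds HP1, whose 1528-nt exon (chr1:110951288-110952815) was in 4 of 5 siNegative models, 80% (28.4 to 99.5%), and 3 of 9 siHNRNPH1 models, 33.3% (7.49 to 70.1%). These intervals overlap, and in HEK-293T the exon was in 1 of 2 and 3 of 4 models. NASP, a histone chaperone, carried a 1017-nt exon (chr1:45607321-45608337) in 11 of 14 HEK-293T siNegative models, 78.6% (49.2 to 95.3%), and 3 of 6 siHNRNPH1 models, 50% (11.8 to 88.2%), and in 1 of 5 and 0 of 3 HT-1080 models. Expression of NASP fell in both lines, from 515 ± 6.51 to 306 ± 26.2 CPM in the HEK-293T libraries and from 138 ± 3.82 to 74.8 ± 1.6 CPM in the HT-1080 libraries. The edgeR BH-adjusted p-values were 0.0232 and 1.01e-07. The TRO exon named above was in 9 of 9 and 13 of 19 including or skipping HEK-293T models, 100% (66.4 to 100%) and 68.4% (43.4 to 87.4%). In all, 18 and 30 models spanned this exon, and the others had another structure there. NUMA1, the spindle-pole protein, had a 3366-nt exon (chr11:72012895-72016260) in 5 of 5 and 10 of 14 HT-1080 models, 100% (47.8 to 100%) and 71.4% (41.9 to 91.6%), and in 9 of 9 models of each HEK-293T pool. RBM6, LRIF1 and NASP were chosen for mention after their values were seen, as were TRO and NUMA1.

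Some exons that tracked 1 siRNA across both lines lay in genes whose expression moved the same way, and others did not. The genes of this paragraph were also chosen after their values were seen. MFSD6, a membrane transporter, had a 1585-nt exon (chr2:190435977-190437561, plus strand) in 1 HEK-293T and 5 HT-1080 siNegative models and in no siHNRNPH1 model. MFSD6 stood at 6.21, 5.98 and 5.96 CPM in HEK-293T siNegative and 0.668, 1.61 and 1.67 CPM with siHNRNPH1. In HT-1080 it stood at 8.02, 6.47 and 8.39 CPM and at 2.29, 2.6 and 2.56 CPM. Its log2 fold changes were -2.24 ± 0.33 and -1.68 ± 0.13 (edgeR BH-adjusted p = 0.0176 and 2.3e-06), and the groups did not overlap in either line. RBM47, an RNA-binding protein, had a 1154-nt exon (chr4:40437771-40438924, minus strand) in 5 HEK-293T and 1 HT-1080 siHNRNPH1 models and in no siNegative model. RBM47 was at 0.953 ± 0.16 CPM in HT-1080 siNegative and rose to 2.99 ± 0.351 CPM, a log2 fold change of 1.58 ± 0.18 (edgeR BH-adjusted p = 3.66e-05). In HEK-293T its means were 10.1 ± 0.574 and 10.2 ± 3.99 CPM (edgeR BH-adjusted p = 0.969), and without siHNRNPH1 replicate 1 it rose by 0.25 on the log2 scale (edgeR BH-adjusted p = 0.00113). CHGB, a secretory granule protein, had a 1766-nt exon (chr20:5922335-5924100) in 1 model of each siHNRNPH1 pool and none of the siNegative pools. The same held for a 4791-nt exon of ICE1, yet its log2 fold change in HT-1080 was -0.51 (edgeR BH-adjusted p = 0.000461). In HEK-293T it was -0.63 (edgeR BH-adjusted p = 0.394), and -0.27 without siHNRNPH1 replicate 1 (edgeR BH-adjusted p = 3.4e-07). For MFSD6, RBM47, CHGB and ICE1, the pools in which the exon was missing held no model that spanned it either. For these genes, presence of the exon and of any model at that place cannot be told apart. Other exons confined to 1 siRNA did have spanning models in the pools that lacked them. Examples are the 2325-nt SPCS3 exon, with 14 and 8 in the siNegative pools, and a 1474-nt CEP85 exon, with 16 and 2 in the siHNRNPH1 pools. A 1305-nt MAVS exon was in 1 and 2 siHNRNPH1 models, and 1 model of each siNegative pool skipped it.

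The short-read libraries measured the expression of 1392 of the 1416 host genes. In HEK-293T, 110 of 1366 tested host genes changed with siHNRNPH1 (edgeR BH-adjusted p under 0.05), or 8.05%, beside 10% of all 19966 genes tested. Of these, 43 were higher and 67 lower, or 3.15% and 4.90% of those tested beside 5.12% and 4.88% of all genes. The split was 54 and 51 when libraries were scaled by total count alone. In HT-1080, 946 of 1339 changed, or 70.6%, beside 65.3% of all 16145 genes, with 450 higher (33.6%, beside 32.7%) and 496 lower (37.0%, beside 32.6%). The median log2 fold change of the host genes was -0.04 in HEK-293T and -0.03 in HT-1080, beside 0.02 and 0.01 over all genes.

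The HEK-293T count turned on single libraries. Without siHNRNPH1 replicate 1, 1047 of 1366 host genes changed, or 76.6%, beside 61.8% of all genes, with 585 higher (42.8%, beside 30.5%) and 462 lower (33.8%, beside 31.3%) and a median of 0.05. Without siHNRNPH1 replicate 2 there were 9 calls, or 0.658%, beside 1.20% of all genes, and without replicate 3 there were 35, or 2.56%, beside 3.14%. Without any one of the siNegative replicates there were 0 (20, 0 and 0 among all genes), with 165 to 168 host genes at an unadjusted p under 0.05. Of 1316 host genes tested in both lines, 85 were called in both, or 6.46%, beside 6.89% of all genes. Of these, 22 were higher in both (1.67%, beside 2.62%), 41 lower in both (3.12%, beside 2.8%) and 22 opposite (1.67%, beside 1.47%).

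Among the host genes lower in both lines, FAM20B, the xylose kinase of proteoglycan synthesis, went from 98.3 ± 1.98 to 31.3 ± 10.2 CPM (SD, n = 3) in HEK-293T libraries and from 90.1 ± 2.97 to 36.8 ± 1.62 CPM in HT-1080. Its log2 fold changes were -1.69 ± 0.25 and -1.36 ± 0.05 (edgeR BH-adjusted p = 0.017 and 2.5e-08). They were -1.58 ± 0.11 and -1.51 ± 0.08 for SFXN2, a mitochondrial transporter, -1.25 ± 0.21 and -1.10 ± 0.05 for NXPE3, and -1.17 ± 0.14 and -1.06 ± 0.05 for NUP43. NUP43 libraries read 170, 173 and 168 CPM with siNegative and 62.6, 82.9 and 86.3 CPM with siHNRNPH1 in HEK-293T, without overlap. Of its long exons, described above, 3 were found in HT-1080 siNegative and 1 in HT-1080 siHNRNPH1.

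The host genes named next were higher in both lines with siHNRNPH1. CHGB read 0.45, 0.551 and 0.62 CPM with siNegative and 6.95, 5.08 and 4.35 CPM with siHNRNPH1 in HEK-293T, a log2 fold change of 3.32 ± 0.27, and rose by 1.03 ± 0.15 in HT-1080. SPRED3, an inhibitor of Ras signalling, rose by 1.40 ± 0.17 and 1.08 ± 0.05, and RAB40B, a small GTPase, by 0.79 ± 0.16 and 0.69 ± 0.15. C4A, a complement component, rose by 1.52 ± 0.12 and 2.37 ± 0.19, and AP1G2-AS1 by 0.75 ± 0.12 and 1.49 ± 0.06. C4A has a near-identical copy in C4B and AP1G2-AS1 lies antisense to another gene, so both values are uncertain. For the host genes of this and the preceding paragraph and MFSD6, edgeR BH-adjusted p lay between 0.00477 and 0.0342 in HEK-293T, and between 2.5e-08 and 0.00218 in HT-1080. In HEK-293T all 10 missed the threshold when any siNegative replicate was left out, with adjusted p of 0.0559 to 0.167, and all 10 passed it without siHNRNPH1 replicate 1.

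Host genes for genome maintenance and mitosis were mostly lower in HT-1080 with siHNRNPH1. Of 25 genome maintenance genes listed, 15 held 18 long exons. In HT-1080, 10 of the 15 fell and 3 rose, beside 32.6% lower and 32.7% higher among all genes. The median log2 fold change was -0.86, beside 0.01 over all genes tested. The log2 fold change was -2.08 for ATAD5, which unloads the replication clamp, -1.80 for BLM, a helicase of recombination, -1.73 for POLQ, the polymerase of end joining, and 0.90 for ERCC6, a repair ATPase. Of 23 mitosis and centrosome genes, 10 held 14 long exons, and 7 of the 10 fell and 2 rose, with a median of -1.34. It was -1.84 for MKI67, which coats mitotic chromosomes, -1.49 for ASPM, of the spindle pole, -1.38 for SGO2, a guardian of centromere cohesion, and -1.36 for KNL1. AKAP9, a centrosomal scaffold, rose by 0.64. The edgeR BH-adjusted p of the named genes was between 6.9e-08 and 0.00081.

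In HEK-293T, 0 of these host genes in either list changed by edgeR, with 1 genome maintenance gene and 0 mitosis genes at an unadjusted p under 0.05. DESeq2 called 1 genome maintenance gene, as lower. With all libraries, the edgeR median log2 fold change was -0.22 for genome maintenance and -0.25 for mitosis, beside 0.02 over all genes tested. Without siHNRNPH1 replicate 1, 8 of the 15 genome maintenance genes rose and 5 fell, with a median of 0.08, and 5 of the 10 mitosis genes rose and 4 fell, with a median of 0.09, beside 30.5% higher and 31.3% lower among all genes. Both list medians thus changed sign when this library was left out. Whether the effect of siHNRNPH1 differed between the lines was not tested here.

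The exons themselves were still found in HT-1080 siHNRNPH1 for several of these genes. SGO2 had 3 and 2 HT-1080 models of its 2928-nt exon (chr2:200571050-200573977), and 4 and 9 in HEK-293T. ASPM had 2 and 2 HT-1080 models of a 1480-nt exon (chr1:197142331-197143810), and 3 and 7 in HEK-293T. HAUS6, of the augmin complex, had 3 and 2, and 15 and 10, models of a 1041-nt exon (chr9:19057961-19059001). MDC1, a mediator of the DNA damage checkpoint, had 1 and 1 HT-1080 models of a 2478-nt exon (chr6:30703621-30706098), and 8 and 5 in HEK-293T. PALB2 had 1 and 2, and 7 and 10, models of a 1473-nt exon (chr16:23634862-23636334). No model of any pool skipped these 5 exons.

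Zinc-finger host genes were more often higher than lower in HT-1080, where 48 of 101 rose and 19 fell, with a median of 0.13, beside 32.7% higher and 32.6% lower among all genes. ZNF737 rose by 2.39 on the log2 scale, ZNF91, a repressor of retroelements, by 1.58, and ZSCAN30 by 1.54, while the log2 fold change was -0.98 for ZFP36L2, which promotes decay of AU-rich mRNAs. Zinc-finger genes of this kind have near copies, among which reads can be split wrongly. In HEK-293T, 0 of 105 changed by edgeR (10 at an unadjusted p under 0.05), DESeq2 called 1 higher and 4 lower, and 53 rose and 23 fell without siHNRNPH1 replicate 1, beside 30.5% higher and 31.3% lower among all genes.

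Host genes for chromatin, RNA processing and the cytoskeleton moved in both directions. Among all genes tested in HT-1080, 32.7% were higher and 32.6% lower. Of 41 chromatin and transcription genes, 20 held 23 long exons, and in HT-1080 5 of the 20 rose and 6 fell. SETD1A rose by 0.50 and TET1 fell by 0.70 on the log2 scale there. Of 27 RNA processing genes, 13 held 22 long exons, and 3 rose and 3 fell. TNRC6B, of the microRNA silencing complex, rose by 0.60 and THRAP3 fell by 0.36. PRRC2A was the 1 host gene of these lists that changed in HEK-293T by edgeR, falling by 0.66 on the log2 scale (edgeR BH-adjusted p = 0.0255). No RNA processing host gene was called there when siHNRNPH1 replicate 2 or 3, or any siNegative replicate, was left out. Of 23 cytoskeleton and scaffold genes, 8 held 10 long exons, and 2 rose and 3 fell. With scaling by total count alone, the HT-1080 split was 8 and 3 for chromatin, 3 and 1 for RNA processing, and 3 and 2 for the cytoskeleton. In HEK-293T without siHNRNPH1 replicate 1, 10 chromatin genes rose and 7 fell. For RNA processing 4 rose and 8 fell, and for the cytoskeleton 5 rose and 1 fell. Among all genes, 30.5% were higher and 31.3% lower in that setting.

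Of the 55 long exons of these 3 lists, 34 had no skipping model in any pool. Among the 31 with at least 10 including or skipping models over the pools, 13 had none. BCOR, a corepressor, had 12, 10, 3 and 3 models of a 2832-nt exon (chrX:40072349-40075180) with none that skipped it. AKAP13, a protein kinase A anchor, had 7, 7, 6 and 8 models of a 3178-nt exon (chr15:85578930-85582107), and MAP4, a microtubule-associated protein, 10, 18, 16 and 20 models of a 1224-nt exon (chr3:47915951-47917174), likewise with no skipping model. NIPBL, the cohesin loader, included a 1626-nt exon (chr5:36984676-36986301) in 8 of 9, 13 of 15, 8 of 10 and 4 of 5 models. YLPM1 included a 2118-nt exon (chr14:74797580-74799697) in 2 of 5, 1 of 3, 1 of 3 and 1 of 4.

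**Figure D5:**
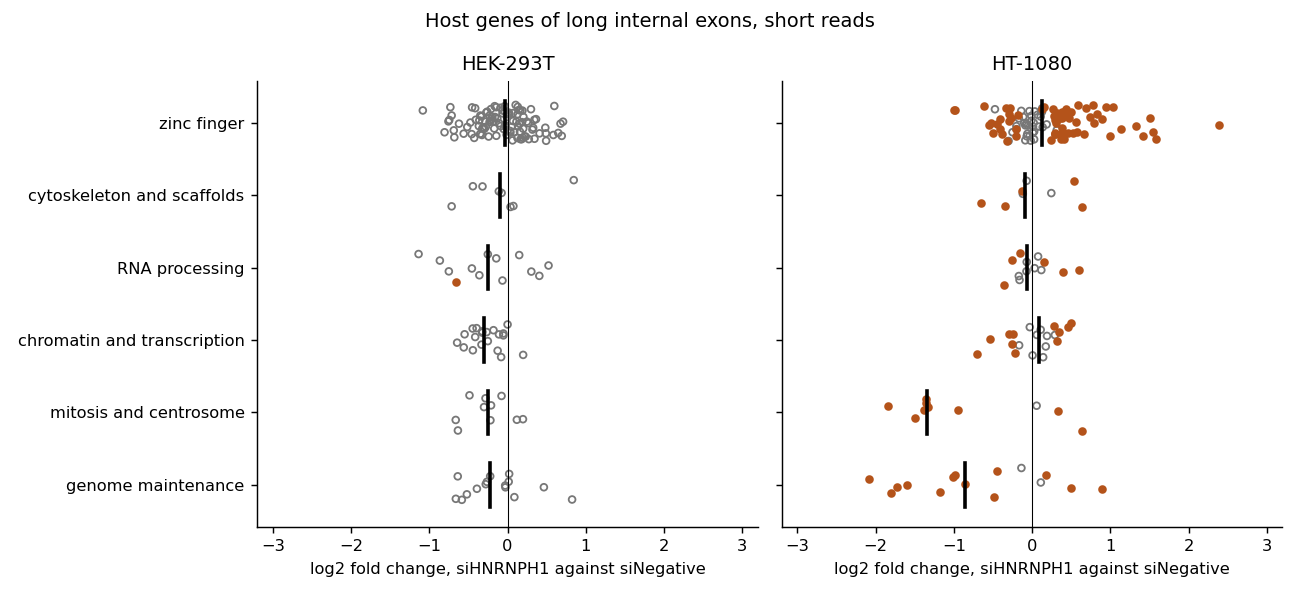
Log2 fold change with siHNRNPH1 against siNegative in short reads (horizontal axis, 3 libraries per group) for each host gene of long internal exons in 6 gene lists, with HEK-293T on the left and HT-1080 on the right. Filled points passed an edgeR BH-adjusted p of 0.05, open points did not, and black bars are list medians, which in HT-1080 lie at -0.86 for genome maintenance and -1.34 for mitosis and centrosome.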

How the data were processed

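The authors deposited, per the labels, expected counts per transcript from RSEM for 12 short-read libraries (251295 transcripts of 61906 genes, 1 table per line) and filtered transcript models from 4 IsoSeq pools. The models carry exon positions and no read counts, so each model counts once. The submitters' processing notes name GRCh38.p13; aligner, annotation release and strandedness are not given in the sources used here.

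Members and lists were chosen with earlier results of these data known. Exons were found with Python 3.11.15. Host genes are RefSeq spans (GRCh38.p14) on the same strand, with the strand from the reference for 1524 exons and from most models for 327. Expected counts were summed per gene, rounded, filtered and tested within each line with edgeR 4.0.16 (quasi-likelihood, TMM, two-sided, BH over all genes). In simulated counts the test was checked beforehand. Exons were named by rank in number of models, length, inclusion difference or list, and host genes by the smaller absolute log2 fold change among those called in both lines with mean counts of at least 50. Exons named by other criteria are marked in the text. The longest exon of the genome maintenance list is not reported here. HNRNPH1, EIF4G1 and AURKA hold no long internal exon. Intervals of shares are exact Clopper-Pearson at 95%, and the interval of a difference combines the intervals of both shares. They cover counting error only and treat models as independent, although models of a gene share exons. Alternatives included DESeq2 1.42.0, other scalings, filters, limits and each replicate left out.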

Additional observations from a re-analysis of the deposited data

Results flagged for a closer look

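The share of models with a long internal exon moved in opposite directions in the 2 lines, by -0.475 percentage points in HEK-293T and by 0.481 points in HT-1080 with siHNRNPH1. With 1 pool per group, no test of this opposition was possible, and it was not tested.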

How the results depend on the processing

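The number of long internal exons in the pools (HEK-293T siNegative, HEK-293T siHNRNPH1, HT-1080 siNegative, HT-1080 siHNRNPH1) was 540, 631, 366 and 369 with a limit of 1500 nt, 2942, 3636, 2114 and 1947 when exons that contain an intron were kept, and 67, 73, 39 and 46 among exons spanned by at least 10 models in every pool. It was 827 in HEK-293T siHNRNPH1 when 2 models were required. The difference in share of models kept its sign in each line under every alternative run. In HEK-293T it was -0.729 points at 800 nt, -0.900 with intron-containing exons, -0.867 with introns of the same pool only, -0.066 for exons spanned by 10 models and -0.151 for models of 3000 to 4000 nt. In HT-1080 it was 0.188 at 1500 nt and 0.0986 for exons spanned by 10 models. The share of unique internal exons kept its direction in neither line. In HEK-293T it rose from 1.06% to 1.17% with siHNRNPH1 in the main setting. It fell from 0.797% to 0.770% when 2 models were required, and from 0.0685% to 0.0680% for exons spanned by 10 models. In HT-1080 it rose from 0.758% to 0.759% in the main setting and from 0.0381% to 0.0451% for exons spanned by 10 models. It fell there from 0.622% to 0.614% when 2 models were required. The restrictions to exons spanned by 10 models and to models of 3000 to 4000 nt were chosen after seeing the data. The inclusion counts in HEK-293T, then HT-1080, were 5 and 5 at 10 points (all internal exons 5.8% and 5.1%), 12 and 7 with 5 models (2.66% and 2.18%), and 0 and 0 with 20 models (0.534% and 0.316%). The HEK-293T host gene count was 220 with DESeq2 (16.1%, beside 19.9% of all genes), 303 with all 12 libraries fitted together (170 higher, 133 lower, 21.8% beside 21.4%), 66 for exons with 2 models (834 genes), 56 with no filter (4.03% beside 3.89%), and 0 to 1047 with a replicate left out. In HT-1080 it was 534 with all libraries together (38.4% beside 29.3%), 563 for exons with 2 models (817 genes) and 856 to 1076 with a replicate left out. The causes were not tested.

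The replicate numbers did not pair the libraries, since deviations of same-numbered libraries correlated by -0.00188 to 0.0981. With the replicate block, 0 host genes passed in HEK-293T (215 at an unadjusted p under 0.05) and 957 in HT-1080.

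Depth is a limit: 975 exons rest on 1 model, and a model is not a count of molecules.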
